A study of Mus musculus with 4 samples.

Results

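Hematopoietic stem cells (HSCs) of the bone marrow sit at the top of blood formation, and single HSCs can carry low levels of transcripts typical of the lineages they feed. Lyz2 encodes lysozyme M, an enzyme that cuts bacterial cell walls, and Prtn3 encodes proteinase 3, a serine protease stored in the primary (azurophil) granules of neutrophils. In blood formation both are read as genes of the granulocyte and monocyte lineages, and in committed granulocyte-monocyte progenitors Prtn3 is transcribed together with Mpo, Elane and Ctsg.

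The cells described here are the HSCs with the most Lyz2 and Prtn3 transcript. They were chosen by measured values. In each of 4 libraries the CPM of the 2 genes (their counts scaled to the cell's total) were added in every cell, the highest 25% of cells were taken as the high cells, and the lowest 25% served as the comparison and are called the low cells. There were 66 high cells, namely 18, 16, 16 and 16 in libraries 1 to 4, out of 264 cells that passed the filters and 297 cells in the table. There were also 66 low cells, divided in the same way.

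All cells came from the marrow of wild-type mice 8 weeks of age and carried no engineered allele and no treatment. They were sorted one by one as Lin- Kit+ Sca1+ CD150+ CD48- cells positive for CD201 (the endothelial protein C receptor, EPCR), the gate called ESLAM SK, and every library's labels name both CD27- and CD27+ cells. Which CD27 gate a given cell came from was not given in the sources used here, so the cells were not divided by it. How mice were divided among the libraries was not given either, so the SDs below measure the spread between 4 libraries, which may be technical. The errors of log2 fold changes are standard errors from the edgeR fit. That fit removes differences between libraries and draws on the variation of other genes, and what remains may be technical too. Transcripts were read by STRT-seq, a single-cell method that sequences a barcoded end of each cDNA. Kept cells held 32091 to 346876 counts, and the summed cells of a library and group held 1043636 to 2617163 counts. Molecular identifiers are not mentioned in the sources used here, so counts may include PCR copies and intervals cover counting error only. The low cells of library 3 stood apart: 4 of these 16 cells held a count of Mki67, a gene of dividing cells, as did 2 of the 16 low cells of library 4 and none of the 66 high cells.

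The 2 genes that chose the cells lie far apart on mouse chromosome 10, and Prtn3 is followed directly by the neutrophil elastase gene Elane. In the GENCODE M21 annotation Lyz2 spans chr10:117277331-117282321 on the minus strand, Prtn3 spans chr10:79874476-79883174 on the plus strand and Elane spans chr10:79886247-79888215 on the plus strand. Their promoters are shown because they place 2 genes that were abundant in these HSCs beside a granule gene that was nearly absent from them. The sequences are the 120 bases ending just before the RefSeq start on GRCm38.p6, written 5′ to 3′ on the gene's own strand, and the capitals mark AGGAAGT or its complement on the other strand, a sequence of the type bound by ETS factors such as PU.1.
Lyz2, chr10:117282273-117282392, minus strand: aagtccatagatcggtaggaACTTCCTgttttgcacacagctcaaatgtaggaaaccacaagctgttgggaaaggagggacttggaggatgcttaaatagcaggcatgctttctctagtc
Prtn3, chr10:79879547-79879666, plus strand: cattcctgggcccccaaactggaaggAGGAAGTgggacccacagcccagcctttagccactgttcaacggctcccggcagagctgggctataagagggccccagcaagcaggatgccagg
Elane, chr10:79886192-79886311, plus strand: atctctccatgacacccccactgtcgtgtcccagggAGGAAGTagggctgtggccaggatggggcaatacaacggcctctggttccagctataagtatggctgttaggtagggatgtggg
Each window held 1 match, starting at -100 on the other strand in Lyz2, at -94 on the same strand in Prtn3 and at -84 on the same strand in Elane. Of 32851 RefSeq windows of this length, 1404 (4.27%) held the sequence on either strand. These matches describe letters in a window and were not measured as binding sites. Their positions rest on the RefSeq starts alone. By the GENCODE spans above, the Prtn3 window lies inside the gene, and the Lyz2 and Elane windows run past the gene's start.

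Lyz2 and Prtn3 were both widespread in these HSCs, and they did not always mark the same cells. A Lyz2 count was found in 250 of 264 cells (94.7%) and a Prtn3 count in 240 (90.9%). Summed over the high cells, Lyz2 stood at 1746, 2099, 1899 and 1383 CPM in libraries 1 to 4, and over the low cells at 243, 258, 188 and 334 CPM. Prtn3 stood at 760, 897, 828 and 1000 CPM in the high cells and at 213, 103, 125 and 177 CPM in the low cells. These levels chose the groups and are given without a test.

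The groups were cut from a continuous range. The lowest member and the highest cell outside the group were 1781.94 and 1781.87 CPM of the Lyz2 and Prtn3 sum in library 1, 2150 and 2072 CPM in library 2, 2093 and 2056 CPM in library 3, and 1796 and 1787 CPM in library 4. The median member held 2033, 2811, 2534 and 2265 CPM in the 4 libraries, and the highest cell of each library held 5623, 4785, 5583 and 4109 CPM. The median low cell held 441, 426, 404 and 503 CPM, so most of these cells also contained the transcripts, and 1 cell each in libraries 2 and 3 held neither.

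**Figure D1:**
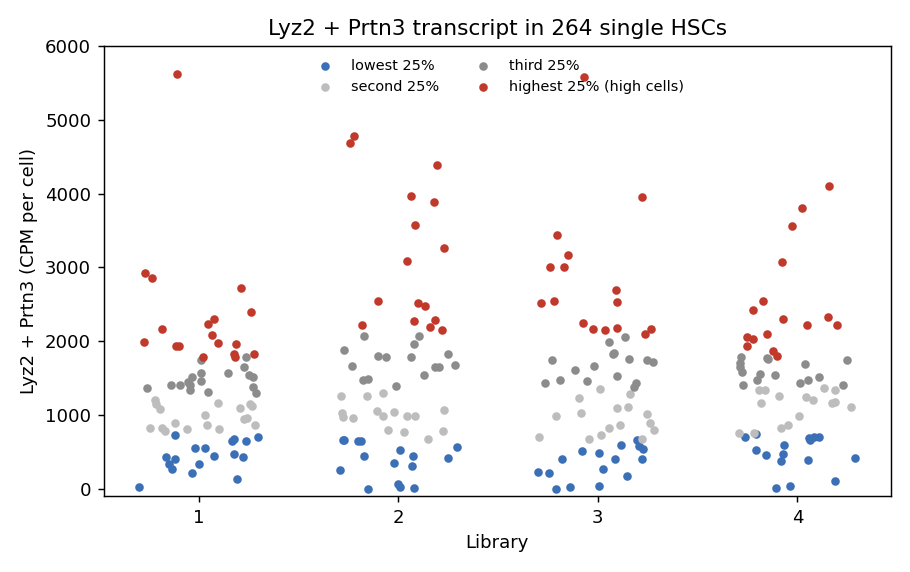
Each point is 1 HSC, the horizontal axis gives the library and the vertical axis the CPM of Lyz2 and Prtn3 added together, with colours for the 4 equal rank groups of each library. The high cells begin near 1782 CPM in library 1 and 2150 CPM in library 2, with no gap below them, and reach 5623 CPM.

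Lyz2 carried most of the selection. It made up 69.7%, 70.1%, 69.6% and 58.1% of the summed transcript of the high cells in libraries 1 to 4. Of the 66 members, 51 were in the highest 25% of their library by Lyz2 alone, 31 by Prtn3 alone, 17 by both and 1 by neither. Across all kept cells of a library, Spearman's rho between Lyz2 and Prtn3 was -0.044 over 72 cells in library 1, and 0.30, 0.41 and 0.060 over 64 cells each in libraries 2, 3 and 4. Cells of 1 library share its preparation, and each pair of values shares the cell's total count. In library 1 a single cell gave 30.2% of the high group's Lyz2 counts, while in the other libraries the leading cell gave 10.9% to 17.8%. The leading cell gave 15.6% to 26.5% of the high group's Prtn3 counts.

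**Figure D2:**
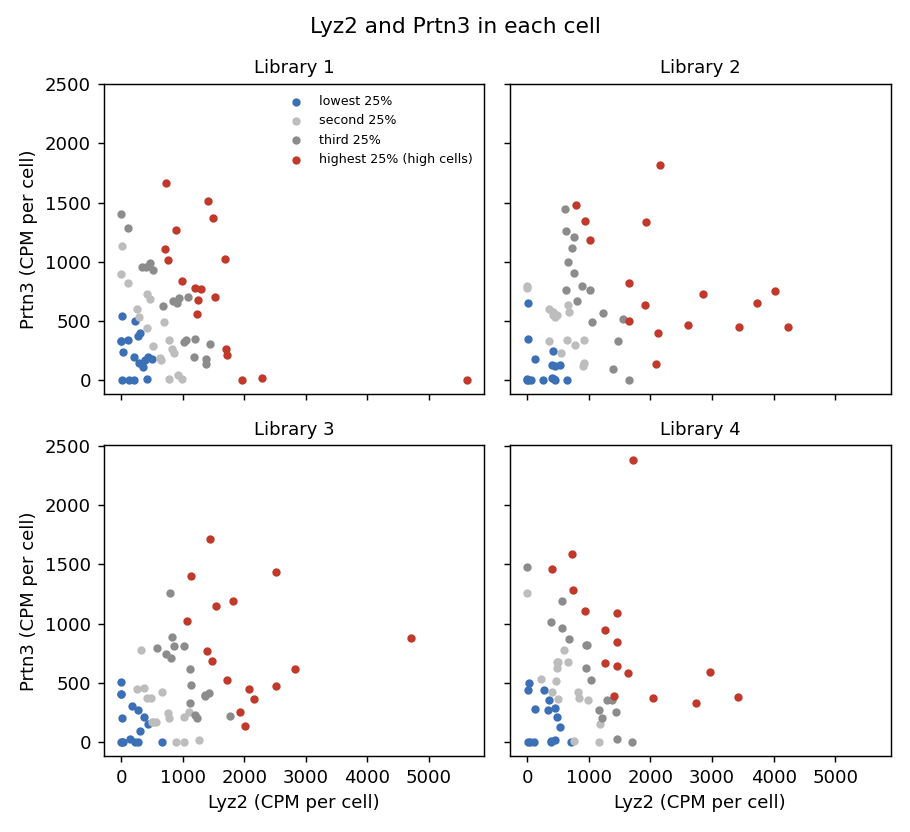
Each panel is 1 library, each point 1 HSC, with Lyz2 CPM on the horizontal and Prtn3 CPM on the vertical axis and colours for the 4 rank groups of their sum. The high group holds cells led by either gene, and in library 1 its leading cell, at 5623 CPM, has 6.76 CPM of Prtn3.

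The label of these cells as myeloid granule cells did not extend to the other defining primary granule genes. Mpo (myeloperoxidase) had a count in 6 of 264 cells and in 0 of the 66 high cells. This allows a share of cells with a count of up to about 4.55% (3 of 66 cells). The limit pools the libraries, covers counting error only and says nothing of transcripts the method missed. Elane had a count in 1 of 264 cells, in neither of the compared groups, and Ctsg (cathepsin G) in 2 cells, both among the low cells. Ms4a3, a gene of granulocyte-monocyte progenitors, had a count in 2 of 264 cells, Prss57 (a granule serine protease) in 8, and Cebpa (a myeloid transcription factor) in 2. Lyz1, the near-identical neighbour of Lyz2, had a count in 6 of 264 cells. Reads that fit both lysozyme genes may have been split or dropped by the counting, so the Lyz2 level is uncertain to that extent. The cells are therefore called by the rule that chose them, HSCs high in the sum of Lyz2 and Prtn3, of which not every cell was high in each gene. These granule genes, and Csf3r, Zeb2, Cd14, Cd68, Mki67, Ctsl, Ctsa, Ctsd, Cd37, Cd79b, Car1, Hba-a1 and the other list members named below outside the naming rule, were singled out after their values were seen.

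Across the transcriptome, no gene was separated between high and low cells by edgeR's quasi-likelihood test with library as a block. Of 7861 genes tested, with Lyz2 and Prtn3 left out, 0 were called higher (0%) and 0 lower (0%) at an adjusted p of 0.05, and the lowest adjusted p was 0.999. At an unadjusted p of 0.05 there were 263 genes (3.35%), 130 higher and 133 lower. DESeq2 called 16 genes on the same sums, 9 higher and 7 lower, of which 15 were among the 263. The 9 were Tmem199, Sdc4, Xlr4a, Hist1h1c, Id1, Cd68, Atxn2, Cd27 and Fahd1, and the 7 were Rbbp6, Gabbr1, Golga1, Mllt6, Wrap53, Zfp65 and Mindy3. Atxn2 and Mllt6 did not go the same way in all libraries. Atxn2 stood at 9.53, 17.3, 37.5 and 18.9 CPM in the high cells and at 112, 0, 0 and 0 CPM in the low cells. Its mean was thus lower in the high cells, at 20.8 against 28.1 CPM. Mllt6 stood at 0, 0, 0 and 60.7 CPM in the high cells, where a single cell gave 86.2% of its counts. The median log2 fold change over all genes tested was -0.02, and 48.6% of genes were above 0. The median standard error was 0.76 on the log2 scale over all genes and 0.33 over the 1963 genes with a mean of at least 100 CPM, so differences smaller than these errors could not be resolved in single genes. Differences of several errors were not called by edgeR either, such as Hist1h1c at 0.98 ± 0.21 with an adjusted p of 0.999.

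As a description of direction, 528 of the 7861 genes (6.72%) were higher in the high cells of 4 of 4 libraries and 576 (7.33%) were lower in 4 of 4. The counts for each gene group below are read beside those shares. This way of counting was added after the data were seen.

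Among the other genes of the primary granule list, serglycin (Srgn) differed most evenly. Of 20 listed genes besides Lyz2 and Prtn3, 16 were in the table and 7 reached the test, which left most of the list to levels at or near 0. The 7 included Gstm1, Calr, Rnase6 and Plac8, which are not among the defining granule genes above. Of those defining genes, Mpo, Elane, Ctsg, Ms4a3 and Prss57 did not reach the test. One of the 7, Srgn, was higher in 4 of 4 libraries and none was lower in 4 of 4, with a median log2 fold change of 0.46 against -0.02 over all genes tested, or 0.21 without library 3. The list's summed level, in which Srgn is the most abundant gene, was 3375 ± 269 CPM in the high cells and 2615 ± 277 CPM in the low cells (SD, n = 4 libraries).

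Serglycin is the core protein of the proteoglycan that packs proteases into granules. It stood at 2198, 2045, 2184 and 1809 CPM in the high cells of libraries 1 to 4 and at 1776, 1461, 1351 and 1624 CPM in the low cells. Every high value lay above every low value, and the log2 fold change was 0.41 ± 0.13 (SE), with an edgeR adjusted p of 0.999, and the log2 fold change without library 3 was 0.31. Over the 4 rank groups, from low to high, its mean level was 1553, 1798, 1960 and 2059 CPM. Srgn also had the highest mean Spearman's rho with the Lyz2 and Prtn3 sum of all genes tested, 0.24 ± 0.14 (SD over 4 libraries), as a description across cells.

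Gstm1, a glutathione transferase on the same list, did not separate as evenly. It stood at 554, 531, 747 and 650 CPM in the high cells and at 587, 446, 254 and 587 CPM in the low cells, so the groups overlapped, and its log2 fold change was 0.46 ± 0.27, or 0.10 without library 3. Calreticulin (Calr), a chaperone that myeloperoxidase needs to fold, had a log2 fold change of 0.19 ± 0.22 (0.07 without library 1, 0.33 without library 4). Ctsc, the protease that activates granule serine proteases, had one of -0.04 ± 0.41, and its levels overlapped fully. Rnase6, a secreted antimicrobial ribonuclease, stood at 47.7, 110, 70.1 and 50.1 CPM in the high cells and at 6.03, 47.9, 0 and 91.7 CPM in the low cells, with a log2 fold change of 2.13 ± 1.21, or 1.06 without library 3 and 3.28 without library 4. Plac8 had a log2 fold change of 0.59 ± 1.04, which was -0.23 to 1.40 when each library was left out.

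Secondary and tertiary granule genes, which neutrophils make late in their maturation, were sparse and followed no direction. Of 16 listed genes, 11 were in the table and 3 were tested, none of them higher or lower in 4 of 4 libraries, with a median log2 fold change of 0.06, or -0.44 without library 3. S100a8, a calcium-binding protein that fills the neutrophil cytoplasm, stood at 66.1, 35.7, 322 and 59.4 CPM in the high cells and at 117, 59.3, 147 and 49.3 CPM in the low cells. Library 3 was high in both groups, and the log2 fold change was -0.04 ± 0.45. Anxa1, annexin A1, stood at 99.1, 269, 212 and 163 CPM in the high cells and at 152, 121, 78.7 and 27.5 CPM in the low cells, a log2 fold change of 1.15 ± 0.50 with overlapping groups, or 0.66 without library 4.

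Myeloid transcription factors and receptors did not set the high cells apart either. Of 24 listed genes, 10 were tested, 1 was higher in 4 of 4 libraries (Csf3r, the receptor of granulocyte colony-stimulating factor) and 1 was lower in 4 of 4 (Zeb2, a zinc finger factor), with a median log2 fold change of 0.21 with or without library 3. The summed level was 1129 ± 223 CPM in the high cells and 1100 ± 146 CPM in the low cells. Spi1, which encodes PU.1, stood at 212, 181, 231 and 157 CPM in the high cells and at 176, 247, 87.5 and 58.1 CPM in the low cells. Library 2 went the other way from the rest, and the log2 fold change was 0.66 ± 0.39, or 0.37 to 1.05 when each library was left out. Csf3r was low throughout, at 24.2, 33.4, 17.3 and 16.7 CPM against 1.10, 7.91, 14.7 and 14.5 CPM. Fcer1g, the signalling chain of Fc receptors, had a log2 fold change of 0.30 ± 0.28, Runx1 one of 0.13 ± 0.32 and Myb one of 0.45 ± 0.34.

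Lysosomal genes had the most members leaning toward the high cells among the myeloid-related lists, and also the most members tested. A log2 fold change above 0 was found in 17 of 21 lysosomal genes and in 6 of 7 tested genes of the primary granule list, against 48.6% of all genes tested. The exception on the primary granule list was Ctsc, and Mpo, Elane and Ctsg were not tested. Of 23 listed genes, 21 were tested, 6 were higher in 4 of 4 libraries (Cd68, Ctsa, Ctsb, Ctsd, Ctsl and Psap) and 0 were lower in 4 of 4, with a median log2 fold change of 0.27, or 0.18 without library 3. Their summed level stood at 4417, 4126, 4278 and 4547 CPM in the high cells and at 3962, 3832, 2862 and 3938 CPM in the low cells, and every high value lay above every low value. None of the 21 was called by edgeR, and DESeq2 called Cd68 alone among these 6.

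Cathepsin L (Ctsl), a cysteine protease of the lysosome, stood at 452, 239, 265 and 323 CPM in the high cells and at 152, 128, 135 and 244 CPM in the low cells. Each library's high cells lay above its own low cells, although the low cells of library 4, at 244 CPM, exceeded the high cells of library 2, and the log2 fold change was 0.96 ± 0.27. Its mean level over the 4 rank groups was 165, 171, 213 and 320 CPM. Cathepsin A (Ctsa), a lysosomal carboxypeptidase, stood at 87.7, 126, 135 and 84.4 CPM against 51.0, 48.4, 61.1 and 65.0 CPM, a log2 fold change of 0.92 ± 0.43 with no overlap. Cathepsin D (Ctsd), an aspartic protease, had a log2 fold change of 0.48 ± 0.25, and cathepsin B (Ctsb) one of 0.26 ± 0.20.

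Cd68, a lysosomal membrane protein typical of macrophages, was low in both groups. It had 5 counts in the low cells, in 5 of 66 cells, and 265 counts in the high cells, in 10 of 66 cells. It stood at 12.1, 0.575, 49.0 and 85.3 CPM in the high cells and at 0, 0.494, 0.736 and 1.15 CPM in the low cells. Libraries 3 and 4 carried the difference. In library 2 both groups were near 0, so the direction of Cd68 there rests on almost no difference. A Cd68 count was found in 29 of all 264 cells. Of 12 listed markers of monocytes and macrophages, Cd68 among them, 8 were in the table, 2 of the 8 were at 0 in both groups and 2 were tested. Their sum was 28.6 to 110 CPM in the high cells and 2.21 to 42.5 CPM in the low cells. Without Cd68 the other 7 markers summed to 16.5, 96.1, 10.6 and 24.6 CPM in the high cells of libraries 1 to 4 and to 10.4, 42.0, 1.47 and 21.8 CPM in the low cells. Cd14 had a count in 5 of 264 cells. The part of such markers in the result was not tested.

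**Figure D3:**
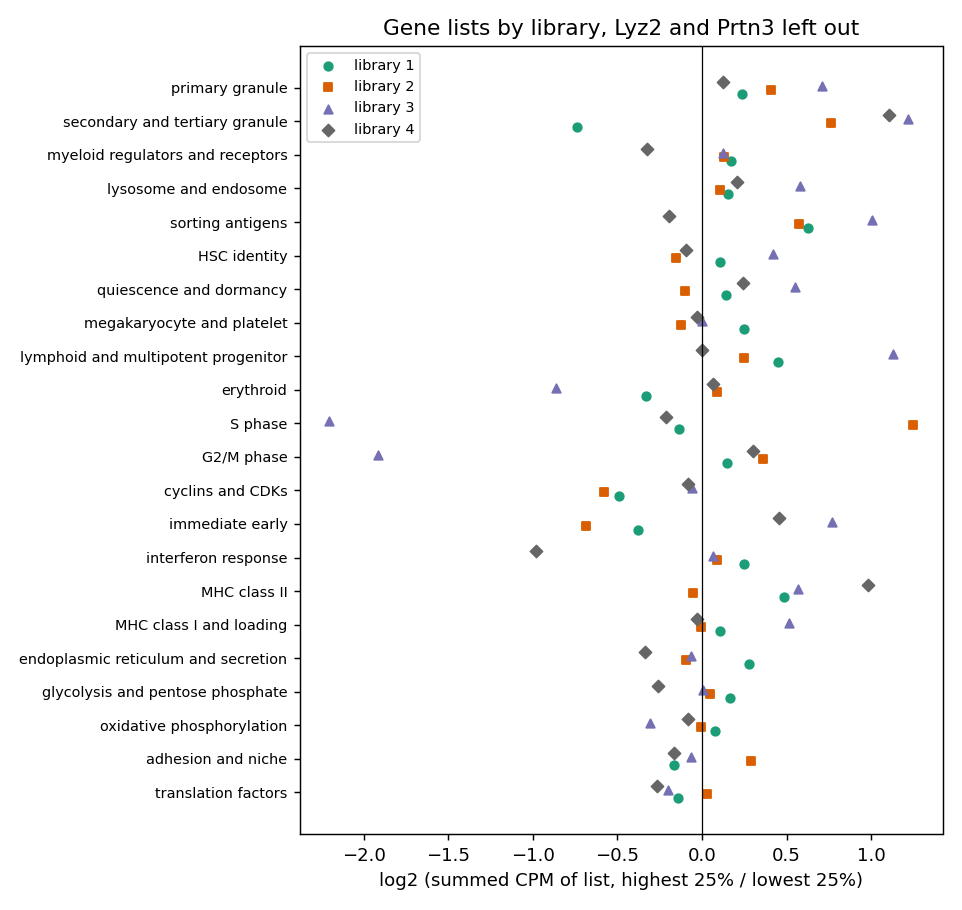
For each of 22 gene lists (rows), points give the log2 ratio of summed CPM between the high and the low cells in each of 4 libraries, with Lyz2 and Prtn3 left out of every sum. Primary granule, lysosome and lymphoid lists lie at or above 0 in all 4 libraries, the cyclin list lies below 0 in all 4, and library 3 stands far to the left for the S phase and G2/M lists.

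Of the antigens used to sort these HSCs, Cd27 and Ly6a were higher in the high cells of 4 of 4 libraries. The sorting list held 8 genes, among them Flt3 and Cd34, which are not part of the gate given above. Of the 8, 7 were tested, with 2 higher and 0 lower in 4 of 4 libraries. The median log2 fold change of the list was 0.70, or -0.17 without library 3. Cd27, a receptor of the tumour necrosis factor family, stood at 320, 294, 308 and 201 CPM in the high cells and at 65.8, 172, 64.0 and 122 CPM in the low cells. Every high value lay above every low value, and the log2 fold change was 1.50 ± 0.37, a fold of 2.84, or 1.24 on the log2 scale without library 3. The edgeR adjusted p was 0.999 and the DESeq2 adjusted p was 0.0492. A relation between Cd27 and Lyz2 in these cells was known when the group was chosen, so this difference is not independent evidence of one.

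Cd27 was also found in more of the high cells. A Cd27 count was present in 11 of 18, 12 of 16, 10 of 16 and 10 of 16 high cells of libraries 1 to 4, 43 of 66 in all, against 7 of 18, 9 of 16, 5 of 16 and 8 of 16 of the low cells, 29 of 66 in all. With every cell thinned to 30000 counts, the numbers were 42 and 23 of 66. The selecting genes differed in this: the Cd27 log2 fold change was 1.19 when cells were ranked by Lyz2 alone and 0.09 when they were ranked by Prtn3 alone, a contrast that was not itself tested. Over the 4 rank groups Cd27 stood at 106, 184, 169 and 281 CPM, and the middle groups differed by less than their spread.

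Ly6a, which encodes Sca1, stood at 966, 780, 803 and 886 CPM in the high cells and at 611, 512, 333 and 729 CPM in the low cells. The groups did not overlap, and the log2 fold change was 0.70 ± 0.19, against 0.35 when every cell was thinned to 30000 counts and 0.51 without library 3. Slamf1, which encodes CD150, stood at 172, 76.5, 52.8 and 19.8 CPM against 71.8, 13.3, 11.0 and 25.2 CPM, with library 4 going the other way and a log2 fold change of 1.43 ± 0.68. Kit (-0.05 ± 0.27) and Procr, which encodes CD201 (-0.21 ± 0.27), showed log2 fold changes smaller than their errors. Cd48, whose protein the gate excludes, had a count in 1 of 264 cells, and Cd34 had a log2 fold change of -0.06 ± 0.71.

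**Figure D4:**
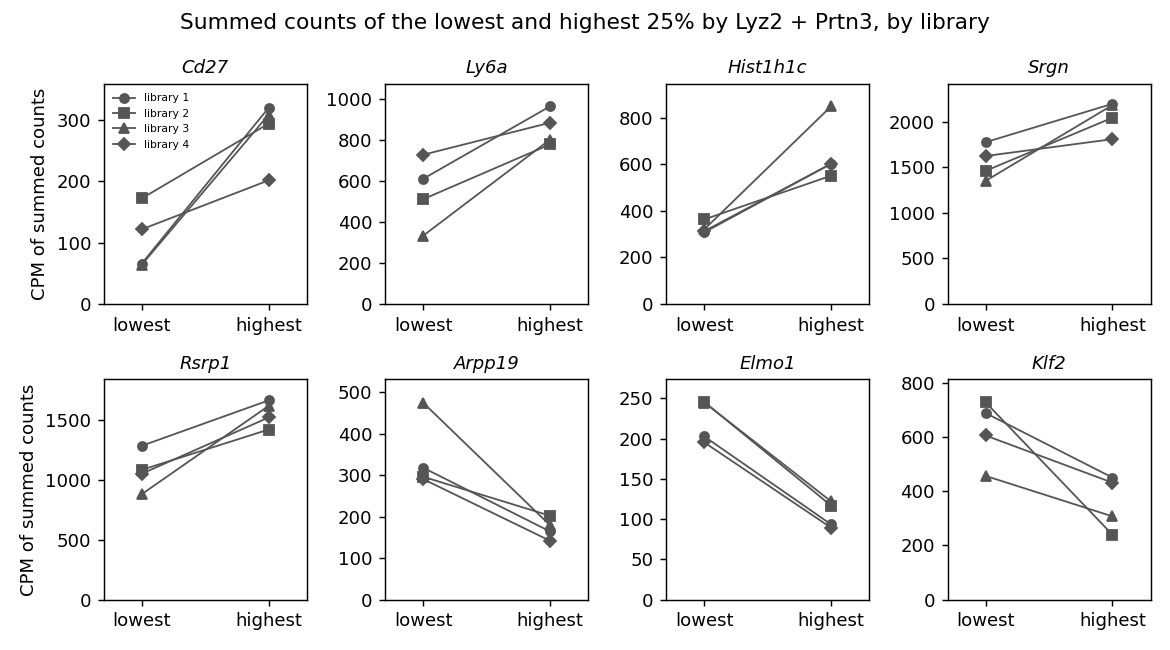
Each panel is 1 gene, with the CPM of summed counts on the vertical axis from 0 and 1 line for each library joining its low to its high cells. Cd27, Ly6a, Hist1h1c, Srgn and Rsrp1 are higher and Arpp19, Elmo1 and Klf2 lower in the high cells of all 4 libraries, while none was called by edgeR.

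The genes with the lowest p-values were of mixed function. Hist1h1c, which encodes a linker histone, stood at 602, 550, 848 and 601 CPM in the high cells and at 307, 363, 320 and 312 CPM in the low cells, with no overlap and a log2 fold change of 0.98 ± 0.21. Its edgeR adjusted p was 0.999 and its DESeq2 adjusted p was 0.0179, and the value was -0.09 when limma was run on each group's mean of log2(CPM + 1) over cells. Id1, an inhibitor of basic helix-loop-helix factors, stood at 433, 267, 50.9 and 44.0 CPM against 107, 83.0, 0.736 and 16.4 CPM, a log2 fold change of 2.26 ± 0.57 with overlapping groups. An Id1 count was found in 10 of 66 high cells and in 10 of 66 low cells. A single cell gave 30.8% of the high group's Id1 counts, and another gave 33.1% of the low group's. The Id1 log2 fold change was 0.46 with limma on the mean of log2(CPM + 1) and 4.07 with cells thinned to 30000 counts. Map2k2, a kinase of the MAP kinase cascade, stood at 296, 248, 302 and 205 CPM against 107, 122, 52.2 and 130 CPM. Its groups did not overlap, and the log2 fold change was 1.40 ± 0.36 with the sum and 0.23 when cells were ranked by Prtn3 alone. Rsrp1 stood at 1662, 1419, 1616 and 1520 CPM against 1283, 1083, 880 and 1050 CPM, a log2 fold change of 0.54 ± 0.14 that was between 0.37 and 0.82 in all 22 alternatives.

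On the lower side, the 6 genes with the lowest p-values were Arpp19, Cenpw, Elmo1, Rbbp6, Golga1 and Klf2, the last of which is described with the immediate early genes. Arpp19, a phosphatase inhibitor that acts at mitotic entry, stood at 165, 202, 180 and 142 CPM in the high cells and at 318, 296, 475 and 291 CPM in the low cells. The groups did not overlap, and its log2 fold change was -0.98 ± 0.25, or -0.85 without library 3. Elmo1, a regulator of Rac signalling in cell movement, stood at 93.4, 117, 122 and 89.3 CPM against 203, 246, 245 and 195 CPM, a log2 fold change of -1.08 ± 0.29. Cenpw, a centromere protein, stood at 13.3, 0.575, 33.6 and 20.2 CPM against 37.3, 20.3, 182 and 123 CPM, with the highest values in the 2 sets of low cells that held Mki67 counts. Rbbp6, a ubiquitin ligase that binds the retinoblastoma protein, had a log2 fold change of -3.59 ± 0.99 and Golga1, a Golgi golgin, one of -3.36 ± 0.95. Both were low genes, found in 28% and 19.7% of all kept cells, with no high value above 39.1 CPM.

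The genes whose levels followed the Lyz2 and Prtn3 sum most closely across cells followed it weakly. The 5 with the highest mean Spearman's rho over 4 libraries were Srgn, Ociad2 at 0.23 ± 0.054, Ctla2a at 0.22 ± 0.24, Rsrp1 at 0.22 ± 0.014 and Ptdss2 at 0.22 ± 0.065 (SD). Ociad2 stood at 71.2, 70.7, 70.1 and 114 CPM in the high cells and at 13.2, 31.6, 19.9 and 32.9 CPM in the low cells, with no overlap, a log2 fold change of 1.80 ± 0.60 and a count in 27 against 9 of 66 cells. Ctla2a, a cathepsin inhibitor, was less even, at 233, 975, 789 and 578 CPM against 383, 578, 278 and 309 CPM, with library 1 going the other way.

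**Figure D5:**
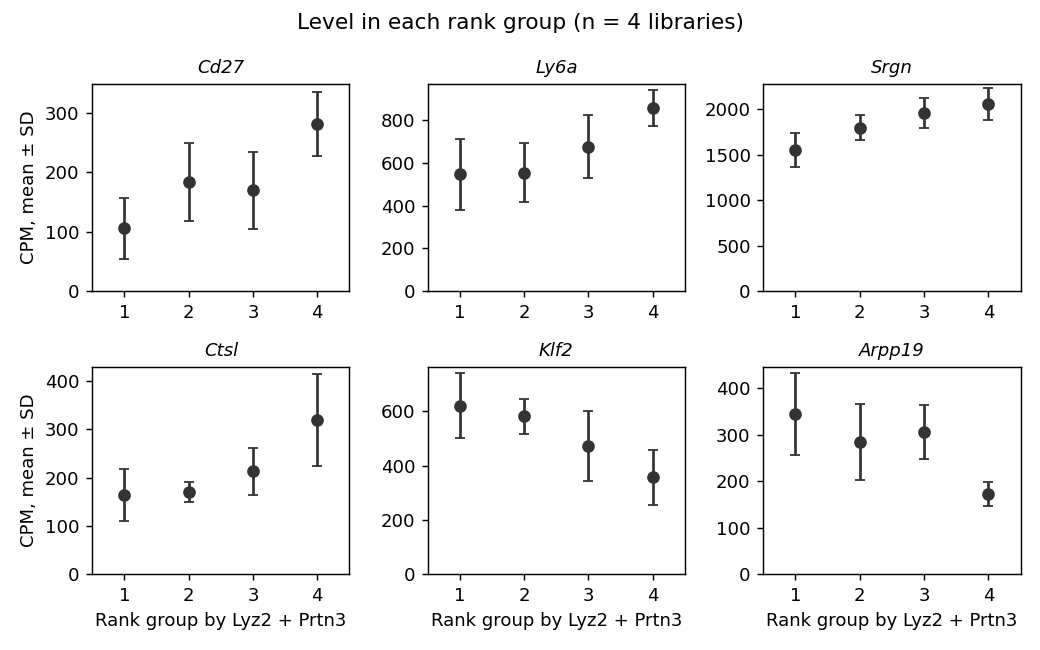
Each panel is 1 gene, with the 4 rank groups of the Lyz2 and Prtn3 sum on the horizontal axis and mean CPM with SD over 4 libraries on the vertical axis from 0. Srgn goes from 1553 to 2059 CPM over the groups and Klf2 from 620 to 357 CPM, and Cd27 is lowest in the low cells, at 106 CPM, and highest in the high cells, at 281 CPM.

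Genes that identify HSCs showed no common direction. Of 30 listed genes, 28 were tested, with 2 higher in 4 of 4 libraries (Esam, an endothelial adhesion molecule found on HSCs, and Ifitm1), 2 lower in 4 of 4 (Ctnnal1 and Fgd5) and a median log2 fold change of 0.03, or -0.16 without library 3. Mecom, a transcription factor needed by HSCs, stood at 162, 224, 391 and 248 CPM in the high cells and at 200, 283, 130 and 200 CPM in the low cells, and libraries 3 and 4 went against libraries 1 and 2. Esam had a log2 fold change of 0.74 ± 0.26. Endothelial markers, of which 10 of 10 were in the table and 3 were at 0 in both groups, summed to 698 to 830 CPM in the high cells and 588 to 697 CPM in the low cells, and their part in the result was not tested. Fgd5, a guanine exchange factor used to mark HSCs, was low in both groups and had one of -1.38 ± 0.89.

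Genes of quiescence and dormancy gave no common direction. Of 20 listed genes, 17 were tested, 1 was higher in 4 of 4 libraries (Apoe), 2 were lower in 4 of 4 (Cdkn1c and Cyp26b1) and the median log2 fold change was 0.07, or -0.06 without library 3. Apoe, which carries lipids, stood at 1906, 1729, 1500 and 2200 CPM in the high cells and at 1512, 1190, 1230 and 1397 CPM in the low cells. Its log2 fold change was 0.45 ± 0.13, and it was 0.19 when cells were ranked by Lyz2 alone and 0.76 when ranked by Prtn3 alone. Cdkn1c, which encodes the cell cycle inhibitor p57, stood at 1.91, 1.73, 31.7 and 46.6 CPM against 30.7, 67.2, 32.4 and 94.8 CPM, with a log2 fold change of -2.39 ± 1.14.

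Among other lineages, lymphoid and multipotent progenitor genes had a median log2 fold change of 0.80, or 0.24 without library 3, with 3 of 11 tested genes higher in 4 of 4 libraries (Cd27, Cd37 and H2-DMa) and 0 lower in 4 of 4. Their sum stood at 1585, 1995, 1983 and 1334 CPM in the high cells and at 1159, 1679, 905 and 1333 CPM in the low cells, so library 4 showed almost no difference. Cd27 is on this list and on the sorting list. H2-DMa, which loads peptides on MHC class II, stood at 261, 273, 342 and 300 CPM against 172, 203, 122 and 186 CPM without overlap, a log2 fold change of 0.80 ± 0.28. Of B cell markers, 6 of 10 were in the table, and their sum was 117 to 182 CPM against 58.1 to 130 CPM, nearly all of it Cd79b. Flt3, a receptor of multipotent progenitors, had a count in 29 of 264 cells and a log2 fold change of 0.87 ± 2.35, which was -0.60 to 2.26 when each library was left out. Of MHC class II genes, 2 of 7 tested were higher in 4 of 4 libraries (H2-DMa and H2-Eb1), with a median of 0.80 (0.43 without library 3), and Cd74, the invariant chain, overlapped fully at 1056, 281, 363 and 237 CPM against 620, 404, 491 and 117 CPM.

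Megakaryocyte and platelet genes had a median log2 fold change of 0.08, with 2 of 14 tested genes higher in 4 of 4 libraries (Cd9 and Selp). Erythroid genes had a median log2 fold change of -0.33, or -0.07 without library 3, with 0 of 8 higher and 1 lower in 4 of 4 libraries. Their sum in the low cells was 6661 CPM in library 3 and 2617 to 3279 CPM in the other libraries, against 2613 to 3671 CPM in the high cells. The markers of erythroid cells, Hba-a1 and Car1 among them, summed to 2054 CPM in the low cells of library 3 and to 139 to 332 CPM in the low cells of the other libraries. Over all 66 low cells, a single cell gave 99.1% of the Car1 counts and a single cell 62.2% of the Hba-a1 counts.

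Cell cycle genes were high in the same summed low cells of library 3. Of these 16 cells, 1 held 346876 of the 1359886 counts summed. Over all 66 low cells, a single cell gave 69.4% of the Mki67 counts, 22.9% of the Dut counts and 17.5% of the Hmgb2 counts. The part of single cells was not tested. Of 17 tested S phase genes, 0 were higher or lower in 4 of 4 libraries, and the list's sum in the low cells was 5413 CPM in library 3 against 970, 984 and 1229 CPM in libraries 1, 2 and 4. The list's median log2 fold change was -0.20 with library 3 and 0.30 without it. In the high cells it stood at 885, 2340, 1176 and 1061 CPM. The G2/M list summed to 3527 CPM in the low cells of library 3, to 751 to 804 CPM in the low cells of the other libraries and to 876 to 990 CPM in the high cells, and its median was 0.00 with library 3 and 0.51 without it. The list of cyclins and their kinases also held CDK inhibitors and the genes Myc, Mycn and Max. Its sum was lower in the high cells of all 4 libraries, at 1955, 1892, 2130 and 2254 CPM against 2741, 2830, 2215 and 2383 CPM. The median log2 fold change over 13 tested genes was -0.21, or -0.37 without library 3. Only 1 gene was lower in 4 of 4, the inhibitor Cdkn1c, which is also on the dormancy list. Ccnd2, the most abundant D-type cyclin of the list, had a log2 fold change of -0.21 ± 0.18. It was higher in the high cells of 2 libraries and lower in 2.

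Among general programmes, the translation list leaned toward the low cells. Of 21 tested translation factors, 0 were higher and 5 were lower in 4 of 4 libraries (Eef1g, Fbl, Ncl, Pabpc1 and Tpt1), with a median log2 fold change of -0.15 with or without library 3. Tpt1, a growth-related protein translated from an abundant mRNA, stood at 636, 813, 700 and 865 CPM in the high cells and at 1066, 888, 1150 and 1275 CPM in the low cells, with no overlap and a log2 fold change of -0.54 ± 0.16. Of 32 oxidative phosphorylation genes tested, 1 was higher and 7 were lower in 4 of 4 libraries, with a median of -0.10 (-0.07 without library 3), and glycolysis genes had a median of -0.05 (0.07 without it). Klf2, a quiescence-linked factor on the immediate early list, stood at 451, 240, 307 and 432 CPM against 689, 728, 457 and 606 CPM, a log2 fold change of -0.81 ± 0.24, or -0.54 without library 2. It was the 1 of 20 tested immediate early genes that was lower in 4 of 4 libraries, with 0 higher, and the list's median was -0.11, or -0.34 without library 3. Interferon response genes had a median of -0.14 (-0.37 without library 3), endoplasmic reticulum genes -0.08 (-0.09), MHC class I genes 0.19 (0.04) and adhesion genes -0.27 (-0.08).

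Depth and RNA quality overlapped between the groups, and 4 pairs of values are too few for a test at 0.05. The median total count per cell, averaged over libraries, was 99330 ± 33993 in the high cells and 107407 ± 35946 in the low cells (SD, n = 4 libraries; exact two-sided sign-flip permutation p = 0.50, where the smallest possible p is 0.13). Genes detected per cell, after thinning to 30000 counts, were 2635 ± 79 and 2567 ± 93 (exact permutation p = 0.375). The mitochondrially encoded share was 1.42% ± 0.036 and 1.44% ± 0.12 (exact permutation p = 0.625), and the ribosomal protein share was 19.9% ± 1.2 and 20.0% ± 0.63 (exact permutation p = 1). Markers of granulocyte-monocyte progenitors, 8 of 10 in the table and 2 of the 8 at 0 in both groups, summed to 61.0, 24.2, 38.4 and 9.24 CPM in the high cells of libraries 1 to 4 and to 76.7, 40.0, 39.7 and 38.6 CPM in the low cells, lower in the high cells of all 4 libraries. Neutrophil markers summed to 67.3 to 386 CPM and 72.6 to 179 CPM, and mast cell markers to 0 in both.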

How the data were processed

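Single HSCs of 4 libraries were analysed from the table of counts per gene and cell that the authors deposited. Per the submitters' processing notes, reads were handled with Trimmomatic 0.36, HISAT2 2.1.0 and HTSeq 0.9.1 on GRCm38. Cells with at least 30000 counts and 1000 genes were kept, which left out 21 cells. Cells 26 to 33 of library 2 and 9 to 16 of library 4, 16 in all, were also left out, of which 12 had passed that filter. Cells had been sorted singly, and no doublet caller was run. Counts were summed over the high and the low cells of each library and tested with edgeR 4.0.16 (quasi-likelihood, TMM, library as block, R 4.3.3) in genes found in at least 10% of cells that passed filterByExpr, with Benjamini-Hochberg adjustment. Lyz2 and Prtn3 were left out of library sizes, tests and the CPM of other genes. The block is the library, which pairs the groups by construction because high and low cells of a library were prepared together. Alternatives used DESeq2 1.42.0, limma 3.58.1 with a pseudocount of 1, other filters, other ways of cutting the groups, thinned cells and each library left out.

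The members, gene lists and tests were chosen with earlier results of these data known. Genes were named by a rule: the selecting genes, the 6 with the lowest p in each direction where fewer were called, the 6 most abundant of each of the 3 myeloid lists, the sorting antigens, the 2 most abundant of every other list, and the 5 most like the sum. Steps were tested on simulated data. One gene's result is not reported here.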

Additional observations from a re-analysis of the deposited data

Results flagged for a closer look

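In 17 of 148 groups of 4 library values, taken over 74 genes, 1 library lay far from the other 3 by Dixon's gap ratio. Chance gives about 1 in 20 such groups for normally distributed values, and 7 of the 17 were the low cells of library 3, so the values are not independent of each other. In the flagged groups of Ngp, Mmp9 and Cd48 the other 3 libraries were at 0, which fixes the ratio at 1. The chance rate does not apply to such genes near 0.

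In the low cells of library 3, Arpp19 stood at 475 CPM (291 to 318 in the other libraries), Blvrb, a heme-degrading enzyme of red cells, at 511 CPM (74.5 to 117), Dut, a nucleotide enzyme of S phase, at 763 CPM (122 to 171), Hmgb2, a chromatin protein of dividing cells, at 1255 CPM (236 to 318), Atp5b at 1160 CPM (723 to 781) and Ngp, a neutrophil granule protein, at 16.9 CPM (0 elsewhere). Ifitm1 was the low one there, at 2201 CPM (3128 to 3252). Of these 16 cells, 4 held Mki67 counts.

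In the low cells of other libraries, Ltf (lactoferrin) stood at 23.2 CPM in library 2 (0 to 0.736 elsewhere), Cd48 at 14.8 CPM in library 2 (0 elsewhere) and Mmp9 at 13.4 CPM in library 4 (0 elsewhere).

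In the high cells, S100a8 stood at 322 CPM in library 3 (35.7 to 66.1 elsewhere) and Tubb4b at 112 CPM there (181 to 186). In library 4 Cd63, a granule and lysosome membrane protein, stood at 882 CPM (686 to 717), Ngp at 25.1 CPM (0 elsewhere) and Ociad2 at 114 CPM (70.1 to 71.2). In library 1 Mmp9 stood at 11.4 CPM (0 elsewhere) and Cd74 at 1056 CPM (237 to 363). The parts that single cells, cell division or other cell types had in these values were not tested.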

How the results depend on the processing

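The count of 0 genes higher and 0 lower held under every alternative except 4. DESeq2 called 9 genes higher and 7 lower. Testing all genes without a filter called 1 higher (Id1) and 1 lower (Car1), filterByExpr alone called 1 lower (Car1), and thinning every cell to 30000 counts called 1 higher (Id1); the cause was not tested. Leaving out each library in turn gave 0 to 0 genes higher and 0 to 0 lower, and the fit with no replicate block called 0 and 0. The difference in genes detected per cell was 67.5 with thinning and -24 without it. The difference in the mitochondrially encoded share was -0.0487 to 0.0138 percentage points, and in the ribosomal protein share -0.298 to 0.427, when each library was left out, the difference in total counts per cell was -12958 to -184 and that in genes detected after thinning 31.2 to 118. Of 70 named genes, 27 kept their sign in every alternative that gave them a value (22, or 21 for Id1 and Golga1) and 43 changed it in at least 1. Leaving out 1 library moved 52 of the 70 by over 1.5 times. The log2 fold change of Cd27 ranged from 0.09 (ranked by Prtn3 alone) to 2.15, Ly6a from 0.35 to 0.82, Srgn from 0.24 to 0.48, Ociad2 from 1.24 to 2.21 and Klf2 from -0.99 to -0.30. Medians ranged from 0.21 to 0.55 for the primary granule list, 0.16 to 0.40 for the lysosomal list and 0.24 to 0.98 for the lymphoid list. They ranged from -0.54 to -0.09 for the list of cyclins, kinases and CDK inhibitors and from -0.24 to -0.03 for the translation list. The interquartile range of the standard errors was 0.45 to 1.31.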
